A study of Mus musculus with 3 samples.

Results

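The Hox genes of the HoxA, HoxB, HoxC and HoxD clusters were examined in stromal cells of the mouse aorta-gonad-mesonephros region (AGM). They were taken as the protein-coding genes whose symbol is Hox followed by the cluster letter and a paralog number, which gave 39 of 47069 genes in the deposited expression table. The 39 genes comprised 11 of HoxA, 10 of HoxB, 9 of HoxC and 9 of HoxD. Bulk RNA-seq had been made from cells of E11 C57BL/6J embryos, a stage at which the dorsal aorta of the AGM gives rise to blood stem and progenitor cells. Embryos of a single litter were pooled, cells carrying CD31, CD45 or cKit were left out at the sort, and none of the groups carried a transgene or a treatment. Double-positive (DP) cells carried the proteoglycan NG2 and the receptor PDGFRβ and are labeled vascular smooth muscle cells. The cells called PDGFRβ-single (PDGFRβ-S) lacked NG2 but carried PDGFRβ, and are labeled sub-vSMCs. Double-negative (DN) cells are labeled stroma without either marker, although the text of the study calls them low or negative. Each population gave 1 library, so there are no replicates and no p-values, and every difference describes these 3 libraries.

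Hox genes encode homeodomain transcription factors that give cells of the trunk and limbs a position along the body axis. Within a cluster the paralogs lie in the order in which they are expressed along the axis, those with low numbers acting anteriorly and those with high numbers posteriorly, and the clusters are opened by trithorax-type and silenced by Polycomb-type chromatin regulators. Hox proteins bind DNA together with homeodomain partners of the TALE class, the Pbx, Meis and Pknox proteins. The posterior HoxA and HoxD genes are also known for their part in limb and genital buds, and several Hox genes remain active in adult smooth muscle and fibroblasts.

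Levels are given in TPM, reads divided by gene length and scaled to the same total in every library, as deposited. For all 39 Hox genes the TPM could be turned back into whole reads, 3072 in DP, versus 5001 in PDGFRβ-S and 5916 in DN, and the intervals given are exact 95% intervals of those reads. They cover counting error only and leave out variation between embryos, sorts and libraries. Copies made by PCR are counted as separate reads, so the intervals can be too narrow even for counting error. The lengths behind the TPM count overlapping annotated exons more than once in 24 of the 39 genes, by up to 2.48-fold in Hoxd3. This lowers their TPM by the same factor in each library and leaves TPM ratios between libraries untouched. Log2 ratios and counts of genes past 2-fold can still change, because they use a pseudocount of 1 TPM and a minimum of 5 TPM. Where 3 values follow a gene without further names, they stand in the order DP, PDGFRβ-S, DN. In a bulk library, fewer expressing cells and less RNA per cell cannot be told apart.

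The difference with the most reads behind it concerned the 5′ end of HoxD. Hoxd11 and Hoxd13 were several-fold lower in DP than in both other populations. Hoxd12, which lies between them, was higher in DP, but short of 2-fold with the pseudocount and from only 70, 41 and 53 reads. The promoters of these neighbors are shown because the 3 genes lie within 18.7 kb and yet went in different directions. They are RefSeq windows of 300 bases, 250 before to 50 after a transcript start, on GRCm38.p6 (mm10), read 5′ to 3′ on the coding strand. Capitals mark matches on either strand to the motifs TGATTNAT (joint HOX and PBX site), TTTATG (Cdx-type site), AGGTCA (retinoid receptor half-site) and TATAAA (the motif bound by TBP).
Hoxd13 (chr2:74667975-74668274, plus strand): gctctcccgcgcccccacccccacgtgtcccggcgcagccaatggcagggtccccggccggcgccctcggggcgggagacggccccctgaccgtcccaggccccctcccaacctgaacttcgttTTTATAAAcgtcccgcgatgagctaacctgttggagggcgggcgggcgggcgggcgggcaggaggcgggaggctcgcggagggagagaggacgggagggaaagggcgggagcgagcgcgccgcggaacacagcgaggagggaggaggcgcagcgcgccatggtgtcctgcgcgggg
Hoxd12 (chr2:74674763-74675062, plus strand): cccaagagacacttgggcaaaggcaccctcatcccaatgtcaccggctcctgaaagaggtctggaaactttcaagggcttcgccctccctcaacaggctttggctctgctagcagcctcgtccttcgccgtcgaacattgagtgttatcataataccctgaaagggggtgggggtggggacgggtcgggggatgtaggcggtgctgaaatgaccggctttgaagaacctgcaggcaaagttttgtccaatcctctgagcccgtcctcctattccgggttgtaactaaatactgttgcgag
Hoxd11, first start (chr2:74679308-74679607, plus strand): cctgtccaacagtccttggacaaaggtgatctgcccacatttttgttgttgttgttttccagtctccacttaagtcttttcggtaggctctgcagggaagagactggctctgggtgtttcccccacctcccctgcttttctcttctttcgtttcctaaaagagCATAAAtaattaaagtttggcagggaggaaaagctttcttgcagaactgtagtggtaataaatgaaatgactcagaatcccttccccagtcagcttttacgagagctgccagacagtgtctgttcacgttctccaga
Hoxd11, second start (chr2:74682073-74682372, plus strand): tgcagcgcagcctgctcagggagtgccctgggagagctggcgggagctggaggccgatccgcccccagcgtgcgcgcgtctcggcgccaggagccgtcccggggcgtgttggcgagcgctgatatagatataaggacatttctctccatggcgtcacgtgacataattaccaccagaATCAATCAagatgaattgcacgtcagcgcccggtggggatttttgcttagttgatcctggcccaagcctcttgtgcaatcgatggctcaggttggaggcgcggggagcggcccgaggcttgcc
The window of Hoxd13 held TATAAA on both strands, in matches that overlap and begin 126 and 124 bases before the start. A Cdx-type match lay 87 bases before the first start of Hoxd11, and a HOX and PBX match lay 73 bases before the second, while the window of Hoxd12 held none of the 4 motifs. Of 32851 RefSeq promoter windows of this length, 13.6% held TATAAA, 11.9% TTTATG, 3.22% TGATTNAT and 16.3% AGGTCA. The windows also differed in composition. That of Hoxd13 was 74.3% G or C with 37 CpG, that of Hoxd12 55.0% with 13 CpG, and those of Hoxd11 45.7% with 4 CpG at the first start and 62.0% with 25 CpG at the second, beside medians of 52.7% and 7 CpG over all windows. The table held 24 windows for 22 of the 39 Hox genes, with a median of 57.7% G or C. A match describes the letters only.

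Taken over all 39 genes, Hox transcripts summed to 254 TPM in DP, versus 329 in PDGFRβ-S and 371 in DN. The clusters did not share this order. HoxD summed to 51.1 TPM in DP, versus 110.6 in PDGFRβ-S and 125 in DN, and HoxA to 78.3, 119 and 123 TPM. HoxC summed to 83.9 TPM in DP, versus 66.9 in PDGFRβ-S and 68.6 in DN, so that DP had the highest value as deposited, but not on the scale of nuclear protein-coding genes (148, 154 and 148) or after quantile normalization (76.7, 80.5 and 62.7). HoxB summed to 40.8, 32.1 and 55.2 TPM, and DP fell below PDGFRβ-S on the former scale (72.2, 73.9 and 119). Expressed as a share of all Hox TPM within a library, which no linear scaling of a library changes, HoxD took 20.1% in DP and 33.7% in each of the other libraries. HoxC took 33.0% in DP, versus 20.4% in PDGFRβ-S and 18.5% in DN.

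By position along the clusters, the sums of the end genes differed more than that of the middle genes. Paralogs 5 to 8 summed to 109 TPM in DP, versus 106 in PDGFRβ-S and 104 in DN, and to 193, 243 and 225 when scaled to nuclear protein-coding genes alone. Their single genes went opposite ways. The anterior paralogs 1 to 4 summed to 43.8, 58.5 and 75.7 TPM, and the posterior paralogs 9 to 13 to 101, 165 and 191 TPM. Single paralog numbers crossed these classes. Paralog 6 summed to 25.4 TPM in DP, versus 10.9 in PDGFRβ-S and 13.8 in DN, highest in DP. Paralog 3 summed to 2.38, 9.20 and 10.7 TPM and paralog 11 to 16.1, 54.8 and 47.9 TPM, both lowest in DP.

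**Figure D1:**
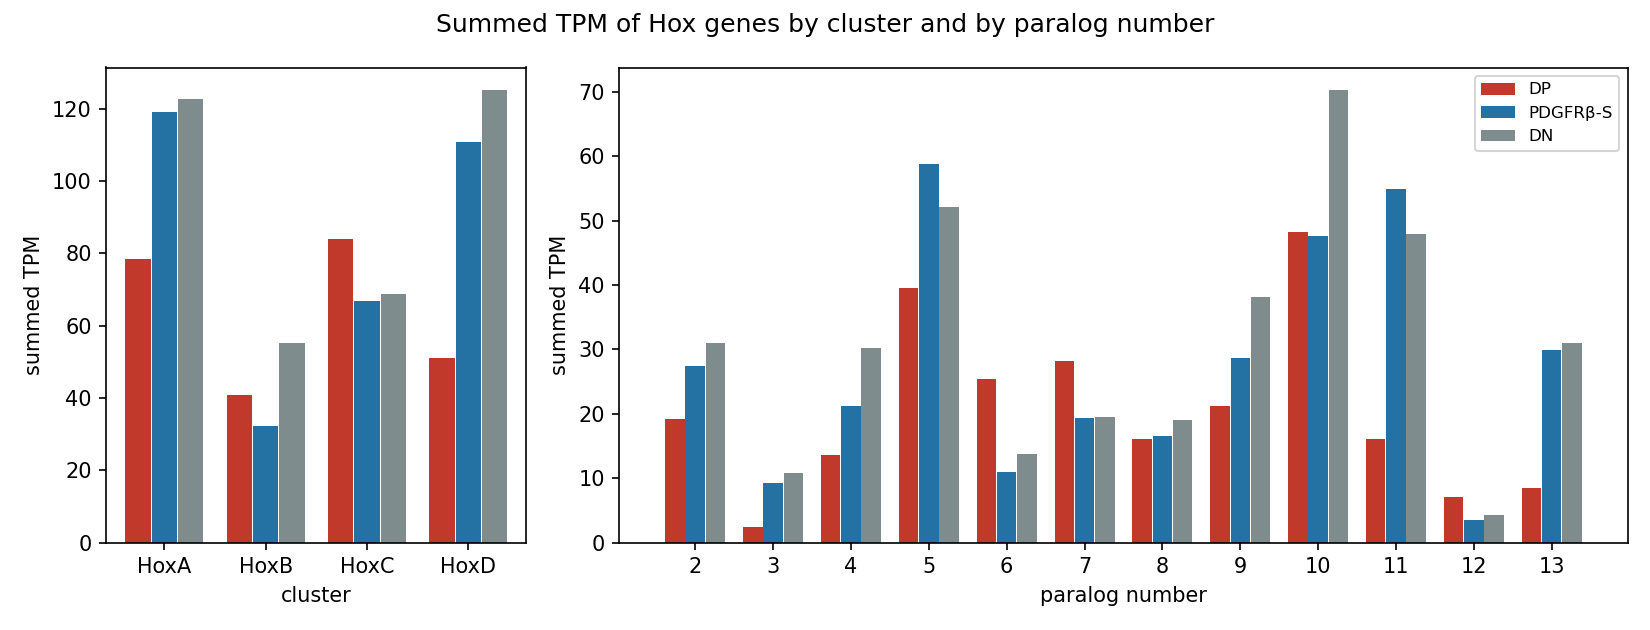
Bars give the summed TPM of Hox genes in DP, PDGFRβ-S and DN, by cluster on the left and by paralog number, from 2, on the right, with 1 library per bar. HoxC is highest in DP at 83.9 TPM, though not when scaled to nuclear protein-coding genes (148, 154 and 148), HoxD is lowest there at 51.1 TPM, and paralogs 11 and 13 stand much lower in DP than in the other libraries.

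Of the 39 genes, 25 reached 5 TPM in some library, 15 reached it in all 3, and 14 stayed below it in all. Hox genes count as higher or lower where log2((TPM + 1)/(TPM + 1)) passed 2-fold and the larger of both values was 5 TPM or more, and the same share over all nuclear protein-coding genes is given as background. Between DP and DN, 2 of 25 Hox genes at this level were higher in DP, Hoxc6 among them, beside a background of 18.2%. Hoxa3, Hoxa4, Hoxb9, Hoxd8, Hoxd11 and Hoxd13, 6 of 25, were lower, beside 13%. The median log2 ratio was -0.45 over these Hox genes and 0.08 over all protein-coding genes at this level. Between DP and PDGFRβ-S, 3 of 23 were higher in DP, Hoxb6 and Hoxc6 among them, beside 31%, and 5 were lower, Hoxa3, Hoxa4, Hoxb9, Hoxd11 and Hoxd13, beside 6.12%. The median was 0.08 over the Hox genes and 0.45 over all genes, and it turned negative when the libraries were rescaled, to -0.38 relative to nuclear protein-coding genes alone. Between PDGFRβ-S and DN, 0 of 21 were higher, beside 0.77%, and 1 was lower, Hoxd8, beside 9.08%. Both comparisons that include DP use the same DP library, so their calls are not separate observations.

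**Figure D2:**
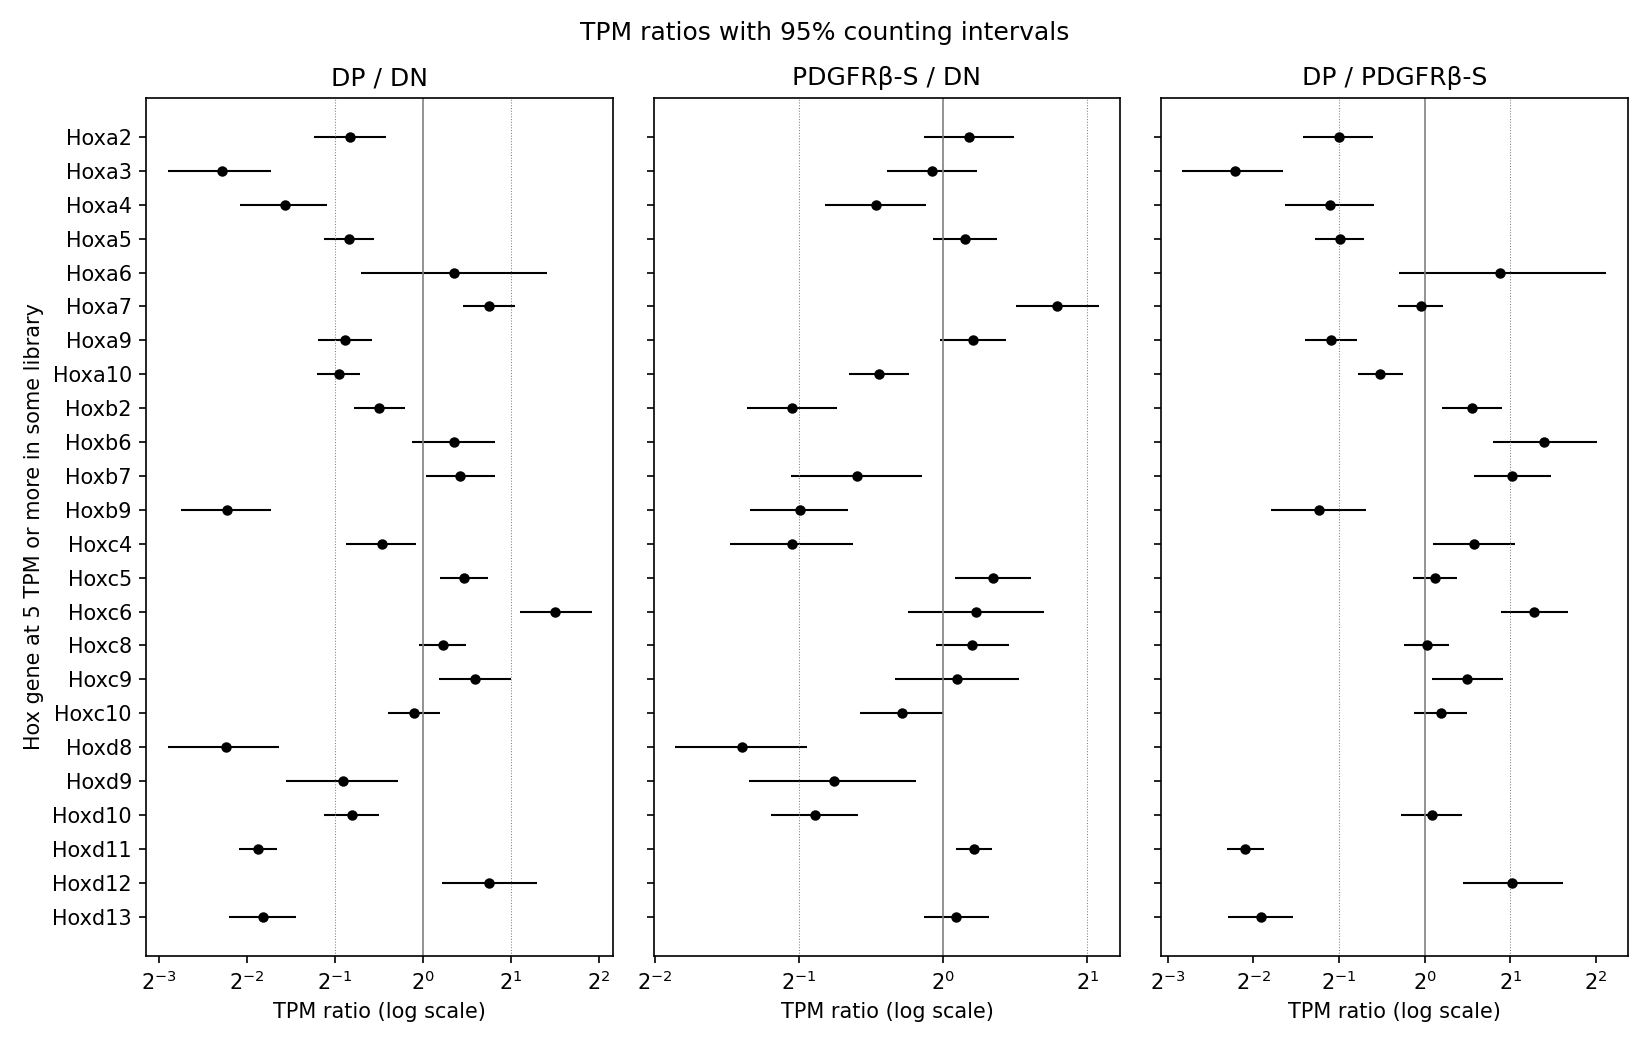
Points give the TPM ratio of Hox genes at 5 TPM or more in the higher library of a comparison, on a log axis, and bars are exact 95% counting intervals; dotted lines mark 2-fold. Hoxd11 and Hoxd13 lie well below 1 in both panels with DP and near 1 between PDGFRβ-S and DN.

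Across the 25 genes, PDGFRβ-S and DN had similar Hox profiles. Pearson's r of log2(TPM + 1) was 0.92 between PDGFRβ-S and DN, 0.47 between DP and DN, and 0.56 between DP and PDGFRβ-S, as a description over genes, which are not replicates. The median absolute log2 ratio was 0.41 between PDGFRβ-S and DN, 0.76 between DP and DN and 0.85 between DP and PDGFRβ-S. Of the 25 genes, 9 had their highest TPM in DP, versus 6 in PDGFRβ-S and 10 in DN. These measures were taken for Hox genes only. Of all nuclear protein-coding genes with a value above 0, 73.4% had a lower TPM in PDGFRβ-S than in DN. In DP, 55.2% were lower than in DN and 42.7% lower than in PDGFRβ-S. With PDGFRβ-S set against DN, 0.77% of all nuclear protein-coding genes at 5 TPM were called higher and 9.08% lower. For DP the shares were 18.2% and 13% against DN, and 31% and 6.12% against PDGFRβ-S. By these calls PDGFRβ-S and DN were the closest pair over all genes too, so their likeness is not particular to Hox genes.

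Among the anterior genes of HoxA, several were lower in DP. Hoxa2, the selector gene of the second pharyngeal arch, was at 10.8 TPM (8.46 to 13.5) in DP, 21.6 (18.6 to 25.1) in PDGFRβ-S, and 19.1 (16.3 to 22.2) in DN. Hoxa3, required for thymus and parathyroid, was at 1.20 TPM (0.808 to 1.71) in DP, 5.56 (4.75 to 6.47) in PDGFRβ-S, and 5.86 (5.05 to 6.77) in DN, 4.90-fold lower in DP than in DN (3.32 to 7.46). Hoxa4, a gene of cervical vertebral patterning, was at 7.30 TPM (5.32 to 9.76) in DP, 15.6 (12.9 to 18.8) in PDGFRβ-S, and 21.7 (18.5 to 25.2) in DN, 2.97-fold lower in DP than in DN (2.13 to 4.22). All 3 were lowest in DP, with intervals apart from those of the other libraries. The calls of Hoxa3 against both populations were lost with a minimum of 10 TPM or a pseudocount of 5 TPM. Quantile normalization also removed its call against DN. The call of Hoxa4 against PDGFRβ-S was lost with a pseudocount of 5 TPM. Of the exons of Hoxa3 27.1%, of Hoxa4 16.0% and of Hoxa2 15.0% are shared with other annotated transcripts. Reads in those stretches cannot be assigned to a single gene by position alone.

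HoxB and HoxC added 2 anterior genes at this level, both highest in DN. Hoxb2, which acts in the facial motor nucleus, was at 8.47 TPM (7.19 to 9.91) in DP, 5.78 (4.82 to 6.88) in PDGFRβ-S, and 11.9 (10.6 to 13.4) in DN. Of the exons of Hoxb2, 27.3% lie opposite Hoxb3os, which was also highest in DN. Hoxc4 was at 5.35 TPM (4.28 to 6.62) in DP, 3.59 (2.79 to 4.56) in PDGFRβ-S, and 7.42 (6.28 to 8.71) in DN. Hoxb3 stayed below 5 TPM and was at 1.16 TPM in DP, versus 3.25 in PDGFRβ-S and 3.95 in DN, with 52.9% of its exons opposite Hoxb3os. Hoxb1, Hoxb4, Hoxd1, Hoxd3 and Hoxd4 ranged from 0 to 1.31 TPM over the 3 libraries, and Hoxd3 and Hoxd4 share more than 50% of their exons with other genes.

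**Figure D3:**
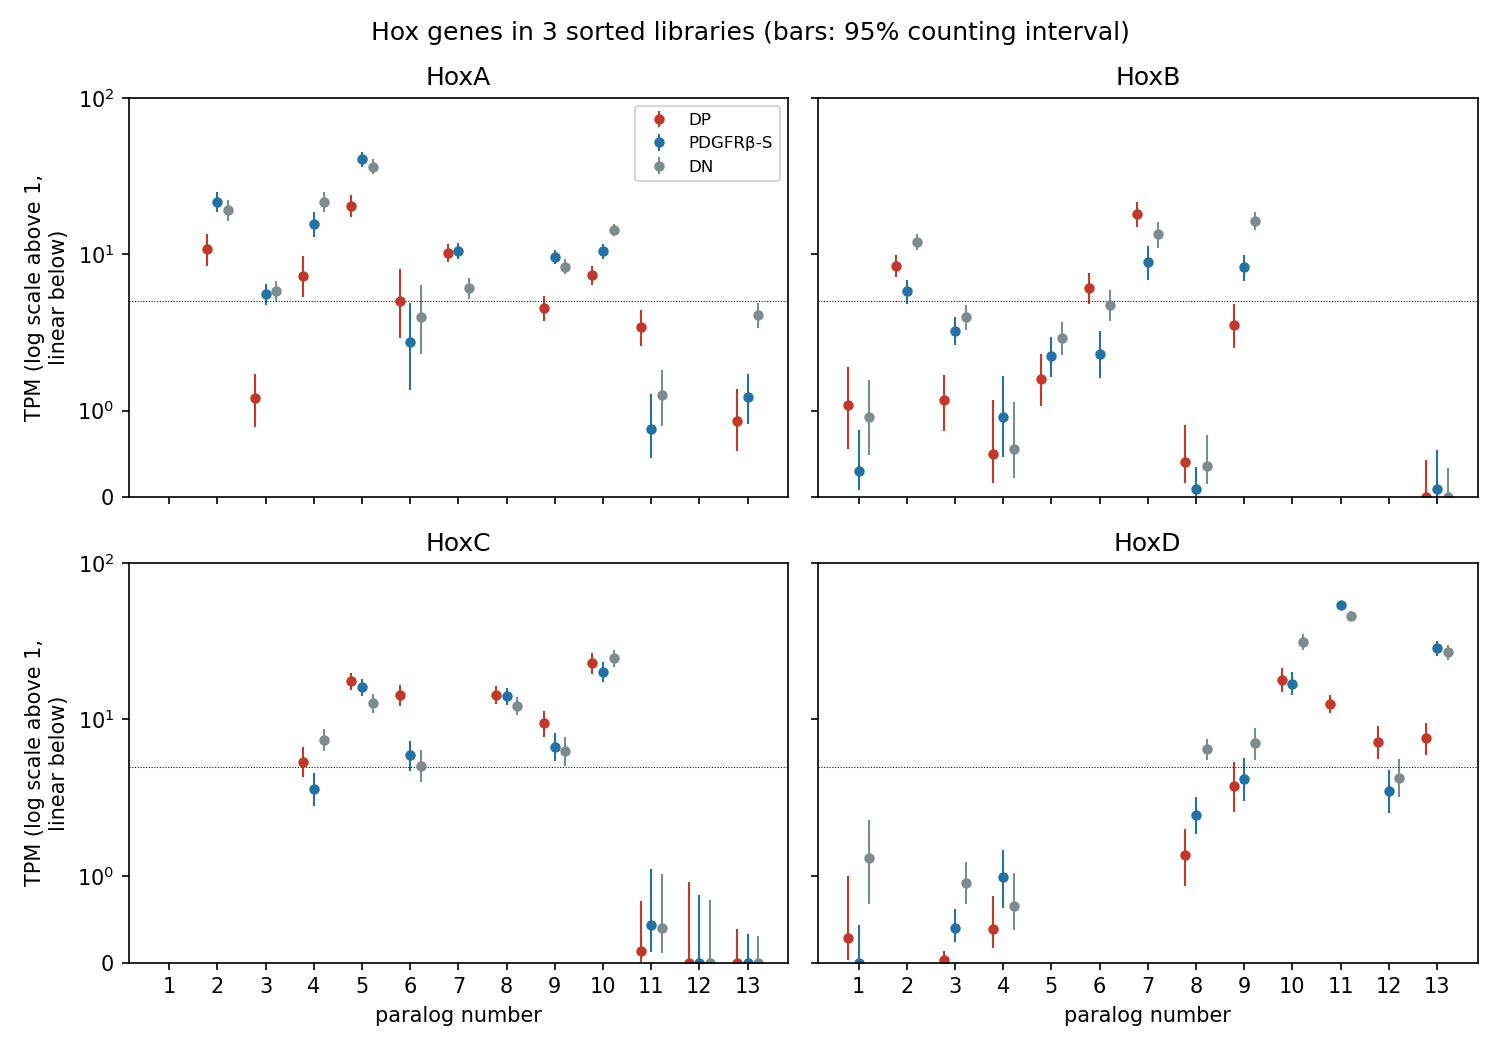
Points give the TPM of Hox genes by paralog number, with a panel for each cluster, on a scale that is linear below 1 and logarithmic above; bars are exact 95% Poisson counting intervals and the dotted line marks 5 TPM. Hoxc6 is highest in DP, while Hoxa3, Hoxb9, Hoxd8, Hoxd11 and Hoxd13 are lowest there.

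The middle genes, paralogs 5 to 8, held the highest HoxA gene by TPM and also Hoxb6 and Hoxc6, called higher in DP. Hoxa5, needed for the trachea and lung, was at 20.4 TPM (17.2 to 23.9) in DP, 40.4 (36.3 to 44.9) in PDGFRβ-S, and 36.5 (32.7 to 40.6) in DN. It was 1.79-fold lower in DP than in DN (1.47 to 2.18), short of the 2-fold limit. Hoxc6, a gene of thoracic and forelimb-level identity, was at 14.3 TPM (12.2 to 16.7) in DP, 5.90 (4.69 to 7.32) in PDGFRβ-S, and 5.05 (3.97 to 6.33) in DN. Its TPM was 2.83-fold higher in DP than in DN (2.15 to 3.77) and 2.43-fold higher than in PDGFRβ-S (1.85 to 3.20), although on the pseudocount scale the second of these fell below 2-fold after centering, quantile normalization or either rescaling, and both did with a pseudocount of 5 TPM.

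The 2 middle genes of HoxB at this level were lowest in PDGFRβ-S. Hoxb6 was at 6.06 TPM (4.78 to 7.57) in DP, 2.31 (1.61 to 3.21) in PDGFRβ-S, and 4.76 (3.76 to 5.95) in DN. Hoxb7, a gene active in the nephric duct and its branches, was at 18.1 TPM (14.9 to 21.7) in DP, 8.88 (6.90 to 11.3) in PDGFRβ-S, and 13.4 (11.1 to 16.2) in DN. The TPM ratio of DP to PDGFRβ-S was 2.62 for Hoxb6 (1.74 to 4.03) and 2.03 for Hoxb7 (1.49 to 2.78). The call of Hoxb6 was lost after either rescaling, centering or quantile normalization, with a minimum of 10 TPM and with a pseudocount of 5 TPM. The ratio of DP to DN was 1.27 for Hoxb6 (0.916 to 1.77) and 1.34 for Hoxb7 (1.03 to 1.76).

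Other middle genes were more even. Hoxc5 was at 17.5 TPM (15.4 to 19.9) in DP, 16.1 (14.2 to 18.2) in PDGFRβ-S, and 12.7 (11.1 to 14.5) in DN. Hoxc8, which patterns thoracic vertebrae and motor neurons, was at 14.3 TPM in DP, versus 14.0 and 12.2 TPM in the others, and all 3 intervals overlapped. Hoxa7 was at 10.2 TPM in DP, versus 10.5 in PDGFRβ-S and 6.07 in DN, and 20.4% of its exons lie opposite Hoxaas3. It was the single Hox gene to pass 2-fold in PDGFRβ-S over DN once the libraries were centered or quantile normalized. Of these genes, Hoxc5 and Hoxc8 changed the sign of their ratio between DP and PDGFRβ-S with the rescaling. Hoxa6 was at 5.03, 2.73 and 3.95 TPM from 17, 11 and 17 reads, too few to order the libraries.

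Hoxd8 is the only middle gene of HoxD. It was at 1.36 TPM (0.887 to 1.99) in DP, 2.45 (1.85 to 3.19) in PDGFRβ-S, and 6.44 (5.47 to 7.53) in DN. The interval of DN lay above both others, which overlapped, although the ratio of DP to PDGFRβ-S was 0.553 (0.333 to 0.896). DN exceeded DP 4.74-fold (3.12 to 7.49) and PDGFRβ-S 2.62-fold (1.92 to 3.63). The call between DP and DN was lost with a minimum of 10 TPM or a pseudocount of 5 TPM. Hoxd8 was the single Hox gene called between PDGFRβ-S and DN. That call was lost after centering, quantile normalization, with a minimum of 10 TPM or with a pseudocount of 5 TPM, and Hoxb2 and Hoxc4 joined it with a pseudocount of 0.1 TPM. Hoxb5 (1.60 to 2.91 TPM) and Hoxb8 (0.0977 to 0.407 TPM) stayed below 5 TPM in every library.

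Among the posterior genes, Hoxd11, Hoxd13 and Hoxb9 were called lower in DP than in both other populations. Hoxd11 (chromosome 2, 74679557 to 74687016), which patterns the forearm and the kidney together with Hoxa11 in the mouse, was at 12.6 TPM (10.97 to 14.4) in DP, 53.6 (50.5 to 56.9) in PDGFRβ-S, and 46.2 (43.5 to 49.2) in DN. By TPM it ranked 1st of the Hox genes in DN and PDGFRβ-S, and 8th in DP. Its TPM was 3.68-fold lower in DP than in DN (3.17 to 4.27) and 4.26-fold lower than in PDGFRβ-S (3.68 to 4.95). Hoxd13 (chromosome 2, 74668310 to 74671599), the gene of digits and genital bud at the end of the cluster, was at 7.60 TPM (5.96 to 9.55) in DP, 28.6 (25.6 to 31.8) in PDGFRβ-S, and 26.8 (24.0 to 29.9) in DN. It was 3.53-fold lower in DP than in DN (2.73 to 4.61) and 3.76-fold lower than in PDGFRβ-S (2.91 to 4.91). Both genes stayed lower in DP by more than 2-fold under every alternative setting, with log2 ratios of DP to DN from -2.12 to -1.54 for Hoxd11 and from -2.03 to -1.34 for Hoxd13.

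Between Hoxd13 and Hoxd11, Hoxd12 went the other way. Hoxd12 (chromosome 2, 74675013 to 74677705), which starts 6.70 kb from Hoxd13 and shares no exon with another gene, was at 7.14 TPM (5.57 to 9.02) in DP, 3.51 (2.52 to 4.76) in PDGFRβ-S, and 4.25 (3.18 to 5.55) in DN. Its TPM was 1.68-fold higher in DP than in DN (1.16 to 2.45) and 2.03-fold higher than in PDGFRβ-S (1.36 to 3.07), and its sign for DP held under all settings. With log2 ratios of 0.63 and 0.85, Hoxd12 was called in neither comparison. It passed 2-fold over PDGFRβ-S only with a pseudocount of 0.1 TPM. Hoxd10, a gene of lumbar motor neurons, was at 17.9 TPM (14.9 to 21.4) in DP, 17.0 (14.3 to 20.0) in PDGFRβ-S, and 31.4 (27.8 to 35.3) in DN, so that DP and PDGFRβ-S overlapped. Hoxd9 was at 3.75, 4.16 and 7.03 TPM, again highest in DN. The ratio of DP to DN was 0.571 for Hoxd10 (0.459 to 0.707) and 0.533 for Hoxd9 (0.339 to 0.821), and both passed 2-fold on the scale of nuclear protein-coding genes alone. Within PDGFRβ-S and DN, Hoxd12 was thus far below both of its neighbors by TPM, whereas in DP Hoxd12 and Hoxd13 were alike. Over the whole cluster, 8 of 9 HoxD genes had a lower TPM in DP than in DN, Hoxd12 being the exception, beside 55.2% of all nuclear protein-coding genes with a value above 0. The ratio interval lay below 1 for 7 of these 8, and for 19 of all 39 Hox genes. The share of all nuclear protein-coding genes with such an interval was not taken. Hoxd1, Hoxd3 and Hoxd4 had only 2, 1 and 8 reads in DP. Lower in DP than in DN were also 7 of 11 HoxA, 5 of 10 HoxB and 3 of 9 HoxC genes. In PDGFRβ-S, 6 of 9 HoxD genes were lower than in DN, beside 73.4%.

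**Figure D4:**
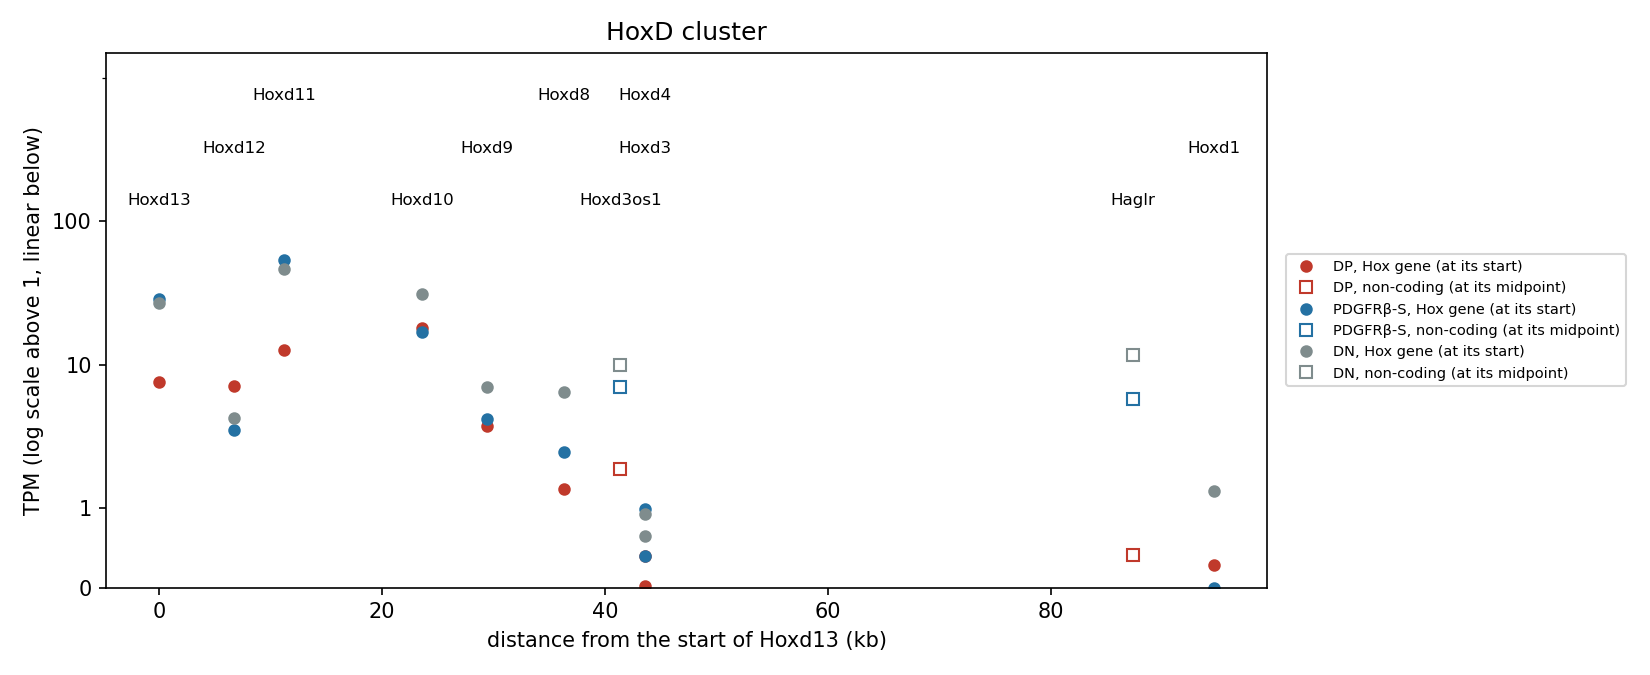
Points give TPM in the HoxD cluster against distance in kb from the start of Hoxd13, on a scale linear below 1 and logarithmic above, with filled circles for the 9 Hox genes and open squares for the non-coding genes Hoxd3os1 and Haglr. Hoxd11 and Hoxd13 are lowest in DP, Hoxd12 between them is highest in DP, and both non-coding genes are lowest in DP.

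In the other clusters the posterior genes varied. Hoxb9, a gene of thoracic rib patterning, was at 3.51 TPM (2.50 to 4.80) in DP, 8.23 (6.76 to 9.93) in PDGFRβ-S, and 16.4 (14.4 to 18.7) in DN, with all 3 intervals apart and DP 4.67-fold below DN (3.32 to 6.74). Its call against PDGFRβ-S was lost with a minimum of 10 TPM or a pseudocount of 5 TPM. Hoxa10, which takes part in lumbar vertebral and reproductive tract patterning, had 7.35 TPM in DP and 10.5 and 14.3 in PDGFRβ-S and DN. Hoxa9, a factor of blood stem cells as well as of the trunk, was at 4.52 TPM (3.77 to 5.37) in DP, 9.63 (8.61 to 10.7) in PDGFRβ-S, and 8.35 (7.43 to 9.34) in DN. These HoxA and HoxB genes were all lowest in DP.

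Posterior HoxC genes were not. Hoxc10, which marks lumbar motor columns, was at 22.9 TPM (19.6 to 26.6) in DP, 20.1 (17.3 to 23.3) in PDGFRβ-S, and 24.6 (21.5 to 27.9) in DN, overlapping throughout, and it ranked highest of all Hox genes in DP. Hoxc9, a thoracic organizer of motor columns, was at 9.45, 6.71 and 6.28 TPM, highest in DP except after centering, with a ratio to DN of 1.51 (1.13 to 2.01). Hoxa11 stayed below 5 TPM, at 3.42 (2.60 to 4.42) in DP, 0.791 (0.452 to 1.29) in PDGFRβ-S, and 1.25 (0.824 to 1.82) in DN, opposite in order to its paralog Hoxd11, although 35.0% of its exons lie opposite Hoxa11os. Hoxa13 was at 0.884, 1.22 and 4.09 TPM, highest in DN. Unlike Hoxd13, it was therefore low in PDGFRβ-S as well, with 33 reads there and 118 in DN.

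The most posterior genes of HoxB and HoxC were at or near 0. Hoxc12 and Hoxc13 had 0 reads in all 3 libraries, where 3 reads would have given 0.752, 0.631 and 0.591 TPM of Hoxc12 and 0.315, 0.264 and 0.247 TPM of Hoxc13, in the order DP, PDGFRβ-S and DN. Hoxb13 had 1 read in PDGFRβ-S and 0 in the others, and Hoxc11 had 1 read in DP and 4 in each of the others. At this depth, lower levels of these genes were not detectable.

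Transcripts that do not code for protein lie within the clusters, 44 genes in all, of which 10 reached 5 TPM in some library and 17 were at 0 throughout. In HoxD, the 2 of them that reached 5 TPM were lowest in DP, while those below that level had no common order. Haglr, a long non-coding RNA beside Hoxd1, was at 0.409 TPM in DP, versus 5.75 in PDGFRβ-S and 11.7 in DN, and Hoxd3os1 was at 1.86, 6.94 and 10.01 TPM. In HoxA, Hoxaas2 was at 1.14, 4.25 and 5.44 TPM and Gm29430 at 3.07, 7.90 and 9.08 TPM, both lowest in DP, and their exons overlap Hoxa3. Hoxb3os, at 10.9, 13.9 and 20.1 TPM, and Hoxb5os, at 10.97, 13.8 and 8.62 TPM, had higher TPM than Hoxb3 and Hoxb5, the coding genes they are named for. Strands were not told apart, and 52.9% of the exons of Hoxb3 lie opposite Hoxb3os. The lengths used also lower the TPM of Hoxb3 1.41-fold and of Hoxb5 1.68-fold. Hoxb5os had 32, 48 and 32 reads, versus 29, 48 and 67 of Hoxb5. Gm15050 was at 14.5, 27.1 and 15.4 TPM and Hoxaas3 at 6.58, 11.2 and 7.99 TPM, both highest in PDGFRβ-S. Hotair, the HoxC transcript studied in human cells for its link to Polycomb, was at 1.29, 2.05 and 0.911 TPM. Of 7 miRNA genes in the clusters, 6 were at 0, which says little because short RNAs are not captured by these libraries, and the short RNA genes Gm27477 and Gm27337 had no more than 7 reads each.

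Of the 9 TALE partners, 7 were at 5 TPM or more in DP and in DN, and 5 in PDGFRβ-S. Pbx3 was at 7.83 TPM in DP, versus 14.1 in PDGFRβ-S and 20.5 in DN, and Meis2 at 17.3, 33.1 and 29.2 TPM, both lowest in DP. Meis1 at 23.3, 13.8 and 15.0 TPM and Meis3 at 23.2, 4.56 and 10.1 TPM were highest in DP. Pbx2 at 5.32, 3.45 and 5.24 TPM and Pknox1 at 6.27, 5.93 and 11.7 TPM also reached this level in some library. Between DP and DN, 1 of 7 was higher (Meis3) beside 18.2% of all genes and 1 lower (Pbx3) beside 13%, shares near the background, with a median log2 ratio of -0.72, beside 0.08 over all genes. Of the ParaHox genes, the relatives of the Hox genes that act in gut and tail, 5 of 6 were at 0 in all libraries and Cdx1 had 5 reads in PDGFRβ-S.

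**Figure D5:**
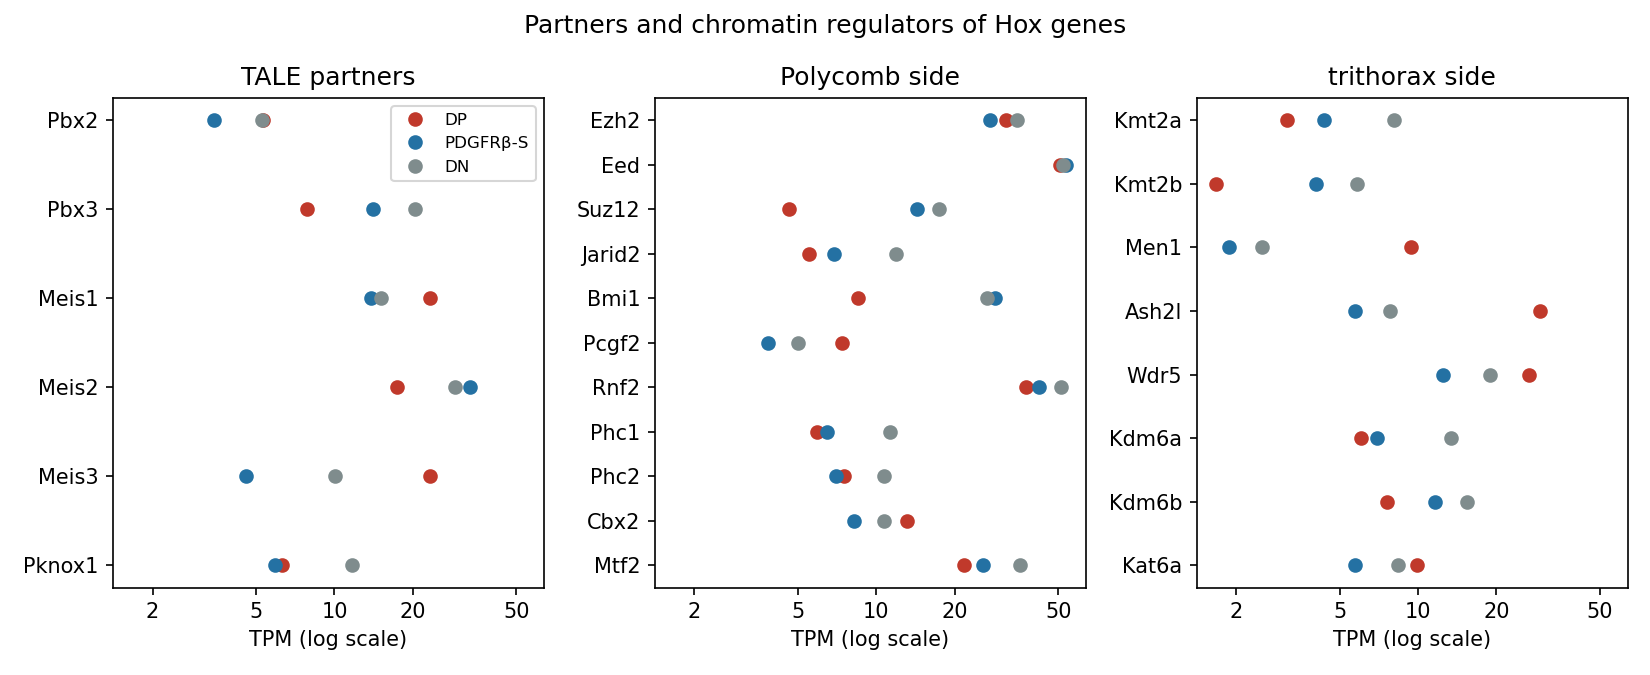
Points give the TPM, on a log axis, of TALE partner genes and of genes on the Polycomb and trithorax sides at 5 TPM or more in some library, in DP, PDGFRβ-S and DN. Meis3, Men1 and Ash2l are highest in DP, and Suz12 and Bmi1 are lowest there.

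Among chromatin regulators of the clusters, calls between DP and DN went both ways on the trithorax side only. On the Polycomb side, 0 of 11 genes at 5 TPM were higher and 2 were lower in DP than in DN, beside 18.2% and 13% of all genes, with a median log2 ratio of -0.47, beside 0.08. Suz12, a core subunit of the complex that methylates histone H3 at lysine 27, was at 4.60 TPM in DP, versus 14.4 in PDGFRβ-S and 17.5 in DN, and Bmi1, a subunit of the complex that ubiquitinates histone H2A, was at 8.50, 28.5 and 26.7 TPM. Other core subunits were near level, with Eed at 50.7, 53.6 and 52.0 TPM, Ezh2, the methyltransferase, at 31.6, 27.5 and 34.7 TPM, and Rnf2, the ubiquitin ligase, at 37.6, 42.1 and 51.5 TPM. On the trithorax side, 2 of 8 were higher and 3 lower in DP than in DN, beside the same shares. Men1 (menin) was at 9.37, 1.87 and 2.50 TPM and Ash2l, a shared subunit of the H3K4 methyltransferases, at 29.5, 5.70 and 7.79 TPM, highest in DP, whereas the methyltransferases Kmt2a at 3.13, 4.36 and 8.10 TPM and Kmt2b at 1.68, 4.05 and 5.84 TPM, and the demethylase Kdm6a at 6.06, 6.93 and 13.4 TPM, were lowest in DP. Remaining members at this level ranged from 3.83 to 35.8 TPM.

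Genes that flank or time the clusters were also examined. Evx2, the homeobox gene beside Hoxd13, was at 0.194 TPM in DP, versus 1.63 in PDGFRβ-S and 2.43 in DN, and Evx1, beside Hoxa13, at 0.849, 0.119 and 0.722 TPM. Mtx2, a mitochondrial transport gene on the other side of HoxD, was at 67.3, 97.9 and 101.5 TPM. Gdf11, the signal that sets the trunk-to-tail transition, was at 8.46, 10.8 and 19.4 TPM and Lin28b at 2.63, 5.70 and 9.96 TPM, both lowest in DP. Hibadh beside HoxA (15.7, 9.40 and 13.6 TPM) and Smug1 near HoxC (11.1, 6.48 and 10.95 TPM) were lowest in PDGFRβ-S, and Calcoco1, also near HoxC, was highest in DP (7.68, 2.55 and 2.55 TPM).

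Other properties of the libraries moved with these differences, and their part in them was not tested. Smooth muscle genes (Acta2, Tagln, Cnn1, Myh11) summed to 7492 TPM in DP, versus 201 in PDGFRβ-S and 98.7 in DN, highest in the library labeled smooth muscle. The embryonic globins Hbb-y and Hba-x summed to 482, 12494 and 12223 TPM, while Ptprc (CD45) was at 0 in all. Mitochondrial genes took 10.5%, 25.5% and 24.4% of TPM, and nuclear protein-coding genes 56.5%, 43.4% and 46.3%. Myog, Th, Dbh and Stmn3, of muscle and sympathetic cells, were at 0 in DP and PDGFRβ-S and at 21.8 to 98.3 TPM in DN. They belong to lists of which 1 of 5 muscle and 4 of 6 sympathetic markers were at 0 in DP and PDGFRβ-S, while others were not, such as Pax3 (2.19, 5.16 and 8.36 TPM), Myod1 (3.35, 0.351 and 17.4 TPM) and Tubb3 (6.09, 0.813 and 50.4 TPM). The 5 muscle markers summed to 7.23, 9.14 and 71.2 TPM. The 3 markers of coelomic epithelium and gonad summed to 35.5, 4.63 and 11.1 TPM, most of it from Upk3b in DP. Upk3b at 27.7, 1.84 and 5.06 TPM and Nr5a1 at 4.50, 0.0713 and 0.634 TPM were highest in DP. Lhx9 at 3.32, 2.71 and 5.38 TPM was highest in DN. Of 5 limb field genes, Tbx4 (5.11, 1.25 and 0.911 TPM), Tbx5 (8.11, 2.64 and 4.06 TPM) and Pitx1 (8.77, 2.94 and 1.05 TPM) were highest in DP, Fgf10 (2.93, 3.59 and 6.43 TPM) was highest in DN, and Lmx1b had at most 2 reads.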

How the data were processed

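Bulk RNA-seq of 3 sorted populations of E11 AGM cells, 1 library each, was used. Lysates of the sorted cells gave full-length cDNA by a Smart-seq2-type protocol without molecular identifiers or strand marking, and single reads were sequenced. Per the submitters' processing notes, the authors aligned reads with TopHat2 2.0.10 to mm10. The authors deposited TPM for 47069 genes; the methods describe TPM and read counting by separate routes, and which gave the table is not stated. A second sheet of 4 columns, under names that match no sample label, was not used. Sources used here do not give the number of sorted cells.

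TPM multiplied by the summed width of all distinct annotated exons (GENCODE M21) gave whole reads, within 0.002, in all 3 libraries for 39 of 39 Hox genes and for 65.8% of 9422 genes with 50 to 5000 reads, and for 0% of those whole-read genes when the constants were shifted by 3%. The genes with whole reads held 6783306 reads in DP, with 6116540 in PDGFRβ-S and 7363189 in DN, a part of the depth. For a gene of 2 kb, 3 reads correspond to 0.388, 0.325 and 0.305 TPM. Reads were used for intervals only: exact Poisson for levels and exact binomial for ratios, at 95%. Log2 ratios used a pseudocount of 1 TPM, which understates the change of low genes, and background shares were taken over 21994 nuclear protein-coding genes. No test was made, because no group has a replicate. Each Hox gene at 5 TPM or more is given with its TPM in every library and the others by range, except a few genes, among them listed ones, that are not reported here, and listed partners, regulators and neighbors at that level are named or given by their range; neighbors matched for 8 of 10 symbols. Members and lists were chosen with earlier results of these data known. Alternatives were pseudocounts, level filters, rescalings and quantile normalization, and TPM per merged exon length, which was chosen after seeing the data. The calculation was tested on simulated data. Python 3.11.15, pandas 2.3.3, NumPy 2.4.6, SciPy 1.17.1 and matplotlib 3.10.9 were used.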

Additional observations from a re-analysis of the deposited data

How the results depend on the processing

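No paired analysis was possible because each population has 1 library, and no library could be left out. Results for all Hox genes moved mainly with the scaling. Hox genes higher in DP than in DN numbered 2, and fell to 1 with a minimum of 10 TPM and 0 with a pseudocount of 5 TPM. The shares over all genes were 20.4% and 12.8% there. Hox genes lower in DP than in DN numbered 6 and rose to 14 of 29 at this level on the scale of nuclear protein-coding genes alone. There the share over all genes rose from 13% to 24.0% and their median was -0.27. The median log2 ratio of DP to DN, -0.45, became -0.93 on that scale and -0.95 without the 20 highest genes. Per merged exon length, 8 of 28 were lower in DP than in DN, Hoxa13 and Hoxb3 joining, beside 14.2% of all genes. On that length 3 were higher, Hoxa11 joining, beside 18.2%, and the median was -0.61. Hoxa11 then also passed 2-fold over PDGFRβ-S. For DP against PDGFRβ-S, 5 lower genes became 9 after rescaling or without the 20 highest genes, 8 after centering or quantile normalization, 3 with 10 TPM and 2 with a pseudocount of 5. The 3 higher genes became 5 with a pseudocount of 0.1, and 1 with a pseudocount of 5, a minimum of 10 TPM, centering, quantile normalization or without the 20 highest genes. The higher share over all genes, 31%, was 33.3% with a pseudocount of 0.1 and 21.5% with a pseudocount of 5. It was 33.3% with 10 TPM, 19.2% centered, 21.3% quantile normalized and 25.1% without the 20 highest genes. The Hox median of DP against PDGFRβ-S, 0.08, reversed to -0.38 after rescaling, -0.18 without the 20 highest genes, -0.37 centered, -0.34 quantile normalized, and -0.0398 with 10 TPM or no minimum. For PDGFRβ-S against DN, 0 higher genes became 1 (Hoxa7) after centering or quantile normalization, beside 1.81% and 2.42% of all genes. Its 1 lower gene became 0 after these, with 10 TPM or a pseudocount of 5, beside 3.99%, 3.89%, 7.18% and 3.11%. It became 2 after either rescaling or per merged exon length, beside 10.5% to 11.3%. With no minimum or a pseudocount of 0.1 it became 3, beside 6.80% and 11.6%. The Hox median of PDGFRβ-S against DN, -0.07, reversed to 0.26 centered and 0.34 quantile normalized. The cause was not tested. Depth limits genes with few reads, such as Hoxa6 and Hoxd1.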

Other observations

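Relating the levels to merged exon length, which counts each annotated base once, changes the order of genes within a library but not the TPM ratios between libraries. Calls can change on this scale, because they use a minimum level and a pseudocount. On that scale Hoxa10 was at 15.2, 21.7 and 29.5 TPM-equivalents in DP, PDGFRβ-S and DN, about the level of Hoxd10 in DN. Hoxa7 was at 19.7, 20.3 and 11.7 and Hoxc8 at 20.6, 20.3 and 17.6. All Hox genes summed to 315, 385 and 442 in the same order of libraries, so DP remained the lowest.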
